A study of Mus musculus with 227 samples.

Results

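Isotretinoin (13-cis-retinoic acid) was given to the culture of 1 RNA-seq library in a screen of mouse primary cerebrocortical cultures. That library was chosen by its agent label and stands beside 226 others. It holds a single culture exposed to Isotretinoin for 8 h at 21 days in vitro. It was compared with the 30 other drug libraries of its sequencing run code, called the run drugs below, each from a different drug, and with the 9 libraries given vehicle (0.2% DMSO) for the same time. All cultures came from cortices of embryonic day 16.5 F1 embryos of an FVB/N by C3B6F1 cross. They were grown in Neurobasal medium with B27, and no mutation or transgene is named in the labels. Doses were not used here, and the labels do not say whether the B27 held vitamin A.

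With 1 Isotretinoin library, its spread was taken to equal that of the libraries it was set against. No p-value below measures how far a second Isotretinoin culture would differ. The run drugs were different treatments taken as 1 group, so their spread includes drug effects. Differences from them are differences from treated cultures. Nothing in the labels says whether the vehicle libraries came from separate culture preparations, so their spread may be technical. The vehicles came from 6 of the 9 run codes and only Vehicle-4 shared that of Isotretinoin, which is why both sets were used. Some genes below are given against the run drugs only. The Isotretinoin library held 33248729 counted reads, against 23774998 to 39136547 in the run drugs and 31401522 to 43766202 in the vehicles. Mitochondrial genes took 3.90% of its counts, against 3.23 to 4.3% in the run drugs and 3.1 to 3.91% in the vehicles. Neuronal and astrocyte markers were abundant, with sums of 3666 and 5510 CPM (counts-per-million units) over 5 genes each. Endothelial markers summed to 2.43 CPM over 4 genes, with Cldn5 at 0 counts.

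Isotretinoin binds retinoid receptors weakly, and cells isomerise it to all-trans retinoic acid, the main ligand of the retinoic acid receptors (RARs). A RAR pairs with a retinoid X receptor (RXR) on direct repeats in DNA and switches from repression to activation when ligand arrives. Among the best known responding genes are Rarb itself and genes that lower the ligand, namely the Cyp26 hydroxylases that degrade retinoic acid and Dhrs3, which reduces retinal to retinol. In the cortex, retinoid signalling is known for roles in neuronal differentiation and in the scaling of synaptic strength.

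The RAR site most studied is DR5, a direct repeat of 2 half-sites of 6 bases spaced by 5. Promoter windows of 300 bases (250 before and 50 after the RefSeq start, GRCm38.p6) were searched for it on both strands. A relaxed DR5 was found in 32 of 32851 windows (0.0974%), from 31 of 27025 genes. Of the 84 retinoid genes examined below, 57 had a window and 2 of them held a DR5, Rarb and Cyp26a1. Both windows are shown because they are the 2 retinoid windows with this sequence feature, and the values of both genes follow. The windows are chr14:16575427-16575726 on the minus strand for Rarb and chr19:37697558-37697857 on the plus strand for Cyp26a1, read in the direction of the gene, with the DR5 in capitals.

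Rarb promoter: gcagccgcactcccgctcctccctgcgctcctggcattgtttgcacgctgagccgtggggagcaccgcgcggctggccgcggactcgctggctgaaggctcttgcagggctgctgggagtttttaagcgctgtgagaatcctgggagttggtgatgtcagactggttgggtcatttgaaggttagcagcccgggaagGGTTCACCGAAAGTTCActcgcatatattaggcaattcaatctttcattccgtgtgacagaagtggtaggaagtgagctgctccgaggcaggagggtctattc
Cyp26a1 promoter: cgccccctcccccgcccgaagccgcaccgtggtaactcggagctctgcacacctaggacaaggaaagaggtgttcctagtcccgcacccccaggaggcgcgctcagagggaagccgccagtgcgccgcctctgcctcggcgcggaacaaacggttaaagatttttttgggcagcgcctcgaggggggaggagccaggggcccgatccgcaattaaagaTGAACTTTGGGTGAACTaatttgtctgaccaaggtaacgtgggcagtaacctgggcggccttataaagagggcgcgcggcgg

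The Rarb match lay at positions -53 to -37 from the start, on the strand of the gene. The Rarb window lies inside the gene, which spans 16430839 to 16819156 in GENCODE vM21. Counts were per gene and do not separate transcripts from different starts. The Cyp26a1 match lay at -32 to -16 on the opposite strand. Read in the same orientation, the matches are as follows.

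Rarb site: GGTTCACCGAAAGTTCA
Cyp26a1 site: AGTTCACCCAAAGTTCA

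A repeat with a spacing of 2 bases (DR2) was in 0.268% of windows, from 84 of 27025 genes, and in none of the 57. A match describes letters only and does not show that a receptor was bound.

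Against the 30 run drugs, 12 of 15419 genes rose with Isotretinoin (0.0778%) and 0 fell, by edgeR's quasi-likelihood test at an adjusted p under 0.05. At an unadjusted p under 0.05, 230 genes were higher (1.49%) and 135 lower (0.876%). Rarb was among the 12 and was the only gene of the retinoid lists that passed. Against the 9 vehicles, 1 of 15406 genes rose (0.00649%), Mbd1, and 0 fell. At an unadjusted p under 0.05, 385 genes were higher (2.5%) and 701 lower (4.55%) than in the vehicles. Mbd1 was the 1 gene that passed both tests.

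Rarb, the retinoic acid receptor whose own gene responds to retinoic acid, was at 55.0 CPM with Isotretinoin (1899 reads, exact 95% counting interval 52.5 to 57.5 CPM). The run drugs had a lowest, median and highest value of 28.1, 32.9 and 44.2 CPM, and the vehicles of 23.7, 30.7 and 33.0 CPM. The Isotretinoin library was above all libraries of both sets and the highest of the series. Rarb rose 1.64-fold over the run drugs (log2 difference 0.72 ± 0.11, SE, adjusted p = 0.00247 by edgeR). Over the vehicles the log2 difference was 0.88 ± 0.15 and did not pass (adjusted p = 0.397 by edgeR), though it passed there by DESeq2 (adjusted p = 0.00522). Within the run code, Vehicle-4 had 30.5 CPM, a log2 ratio of 0.85 with no test.

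The next highest Rarb values of the series were in libraries of the same lane. The sequencing labels put Isotretinoin in lane 6 of the run with Irbesartan, Hydroxyzine Dihydrochloride and Isosorbide Dinitrate. These 3 libraries had 44.2, 39.7 and 32.3 CPM of Rarb, ranks 1, 2 and 20 of the 30 run drugs. With the 3 lane mates left out, the log2 difference of Rarb was 0.74 ± 0.08 (adjusted p = 5.98e-06 by edgeR). The part of the lane, or of work shared by these libraries, in their Rarb values was not tested.

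**Figure D1:**
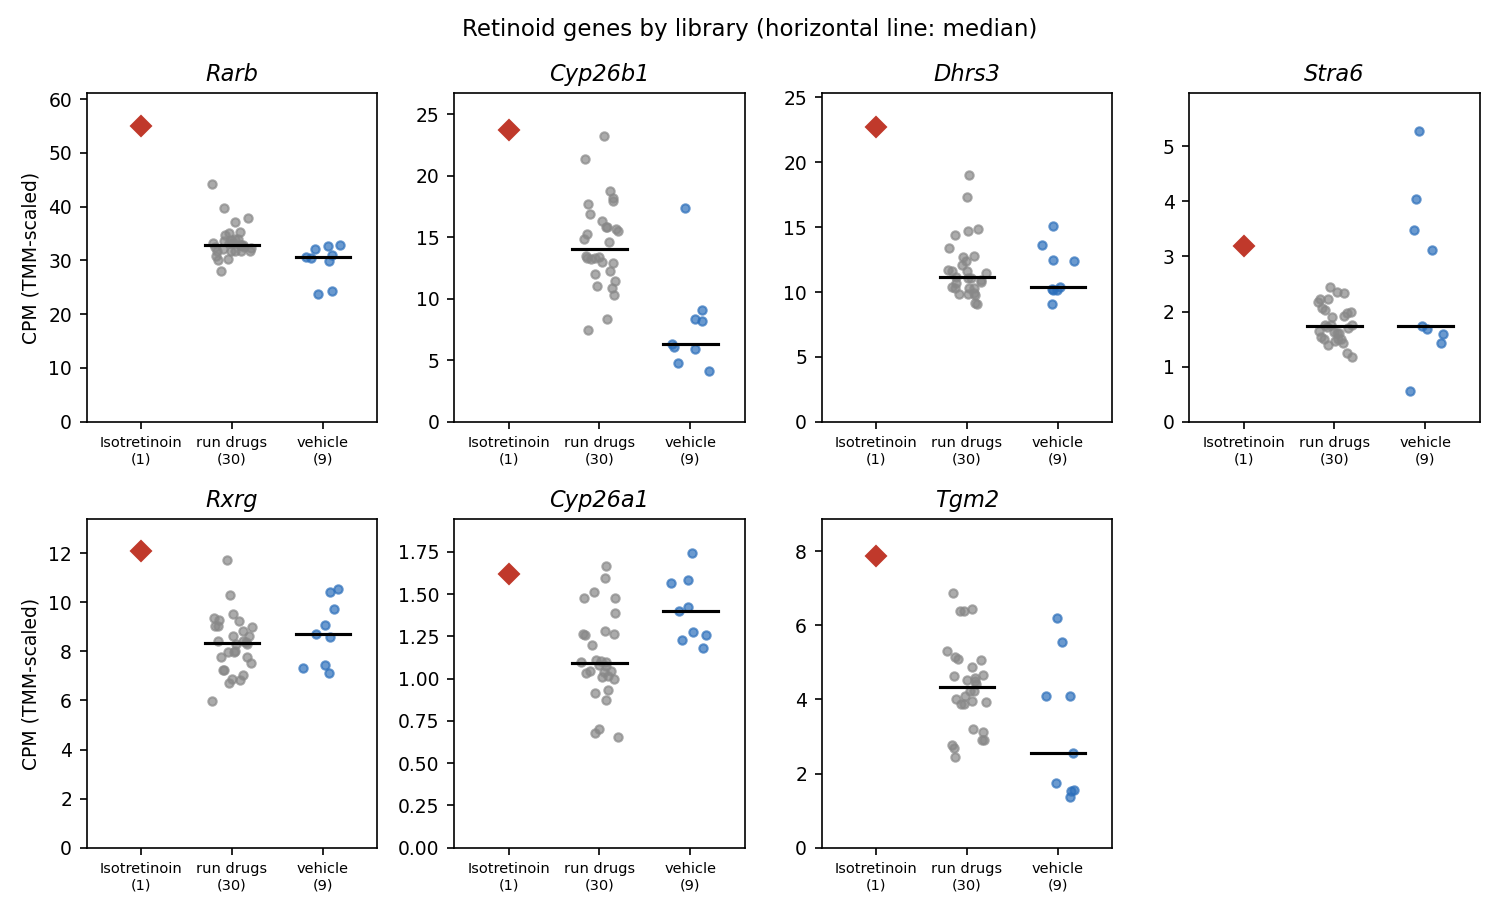
Level of 7 retinoid genes in CPM (vertical axes, from 0) in the Isotretinoin library (diamond), the 30 run drugs and the 9 vehicles (points, with the median as a line). Rarb, Cyp26b1 and Dhrs3 are higher with Isotretinoin than in every library of both sets, while Cyp26a1 at 1.6 CPM lies inside both.

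Of the 3 Cyp26 enzymes, Cyp26b1 was the one expressed at an appreciable level. It was at 23.7 CPM with Isotretinoin, against 7.44, 14.1 and 23.2 CPM (lowest, median, highest) in the run drugs and 4.1, 6.34 and 17.4 CPM in the vehicles. This was the highest value of the series, but Hydroxyzine Dihydrochloride, a lane mate, was next at 23.2 CPM. The log2 difference was 0.72 ± 0.31 against the run drugs (unadjusted p = 0.0274, adjusted p = 0.9995 by edgeR) and 1.6 ± 0.51 against the vehicles (adjusted p = 0.55). Cyp26b1 thus did not pass either test. The run drugs themselves lay higher than most vehicles, and the vehicle of the run, Vehicle-4, was at 9.08 CPM.

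Cyp26a1, which carries the DR5 printed above, was at 1.6 CPM with Isotretinoin, against 0.652 to 1.67 CPM in the run drugs and 1.2 to 1.74 CPM in the vehicles. It ranked 2 among the 31 libraries of Isotretinoin and the run drugs and 54 in the series, inside the range of both sets, with log2 differences of 0.52 ± 0.30 and 0.21 ± 0.23. Its 56 reads give a counting interval of 1.2 to 2.1 CPM. Cyp26c1 had 1 read and was not tested.

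Dhrs3, the retinal reductase, was at 22.7 CPM with Isotretinoin (786 reads, counting interval 21.2 to 24.4). The run drugs had 9.06, 11.1 and 19 CPM (lowest, median, highest) and the vehicles 9.08, 10.4 and 15.1 CPM, so neither set reached it. The log2 differences were close, 0.95 ± 0.23 against the run drugs (adjusted p = 0.137 by edgeR) and 0.98 ± 0.21 against the vehicles (adjusted p = 0.55). Dhrs3 did not pass the main tests. Of the alternative settings it passed in 3 of 37 against the run drugs and in 0 of 13 against the vehicles. Of the 30 fits that left out 1 run drug it passed in 1. It passed against the run drugs without Levothyroxine·Na, Liothyronine·Na and Formoterol (adjusted p = 0.0444), the last of which had the highest Dhrs3 of the run. It also passed when all other 226 libraries were used with a run-code term, a setting chosen after the data were seen (0.95 ± 0.21, adjusted p = 0.0189). Across the series its next highest value was 21.8 CPM in Fenofibrate, a fibrate of another run.

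**Figure D2:**
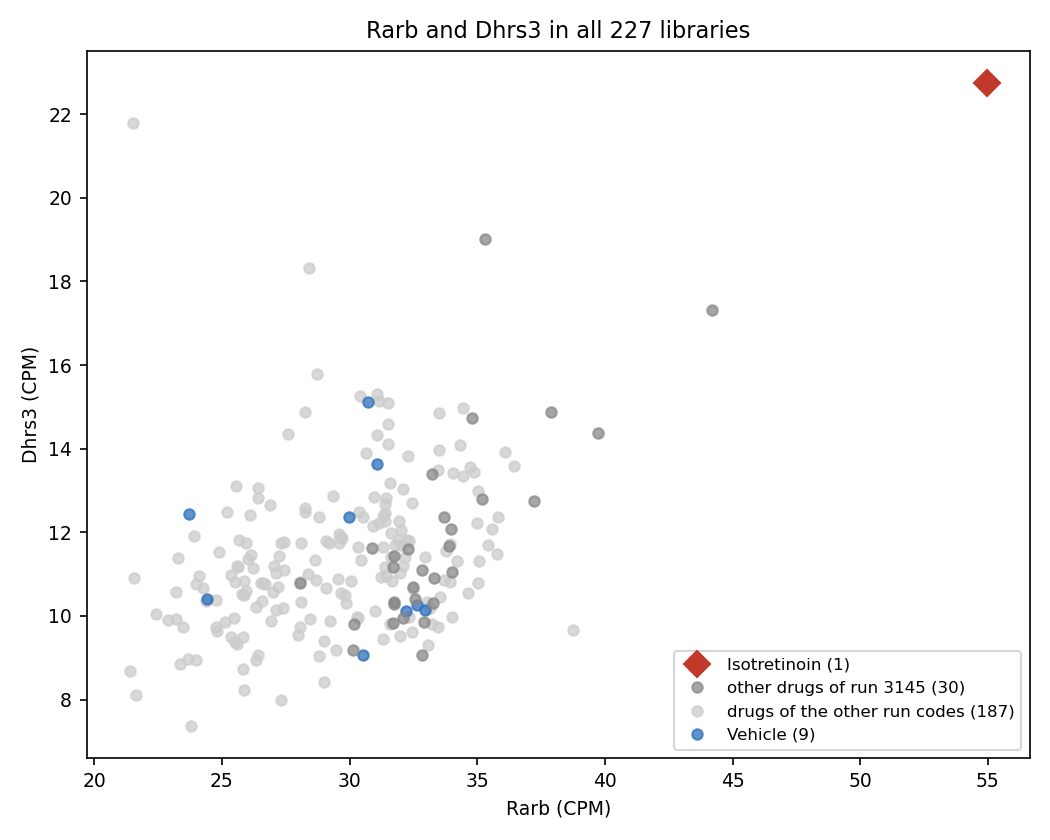
Rarb (horizontal axis) and Dhrs3 (vertical axis) in CPM in every library of the series, 1 point each. Isotretinoin stands at 55.0 and 22.7 CPM, the highest library on both axes; the next on Rarb is at 44.2 CPM and the next on Dhrs3 at 21.8 CPM.

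The other genes of retinal reduction and retinol storage, apart from Lrat, showed smaller differences. Lrat, which esterifies retinol, had 8 reads (0.232 CPM, run drugs 0 to 0.345). Its log2 difference from the run drugs was 0.85 ± 0.71. It was not tested against the vehicles (0.0621 to 0.227 CPM). Retsat, a retinol saturase, was at 15.1 CPM, inside 10.1 to 19.8 CPM in the run drugs and 9.64 to 15.4 CPM in the vehicles. Dgat1 and Rdh11 differed from the run drugs by 0.11 ± 0.10 and 0.01 ± 0.08 on the log2 scale.

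Genes that make retinoic acid stayed inside the range of the run drugs in all 6 tested cases. Rdh10, which oxidises retinol, was at 22.1 CPM, against 18.8 to 26.3 in the run drugs and 13.5 to 22.5 in the vehicles. The retinal dehydrogenase Aldh1a2 was at 3.18 CPM, against 2.49 to 8.17 CPM in the run drugs and 0.533 to 5.62 CPM in the vehicles. Its relative Aldh1a1 was at 1.65 CPM, inside 1.2 to 2.93 in the run drugs and just above 0.932 to 1.61 in the vehicles.

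Among binding and uptake proteins, the membrane receptor for retinol-binding protein, Stra6, differed between the 2 references. It was at 3.18 CPM with Isotretinoin, above all run drugs (1.2 to 2.44 CPM) but inside the vehicles (0.556 to 5.28 CPM). Its log2 differences were 0.83 ± 0.24 (adjusted p = 0.571 by edgeR) and 0.32 ± 0.82. The retinoic acid carriers Crabp1, Crabp2 and Fabp5 differed from the run drugs by 0.17 ± 0.36, -0.15 ± 0.39 and -0.06 ± 0.10.

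Of the 6 receptors, Rarb alone passed, in the test against the run drugs. Rxrg was at 12.1 CPM with Isotretinoin, above 5.96 to 11.7 CPM in the run drugs and 7.11 to 10.6 CPM in the vehicles. Its log2 differences of 0.54 ± 0.18 and 0.46 ± 0.20 did not pass, and the highest run drug for Rxrg was again the lane mate Irbesartan. Rara was at 8.94 CPM, inside the run drugs (6.83 to 12.1) and below all vehicles (10.1 to 24.2), while Vehicle-4 had the lowest vehicle value. Rarg, Rxra and Rxrb differed from the run drugs by 0.22 ± 0.16, 0.02 ± 0.11 and -0.04 ± 0.09.

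Per kilobase of gene length, Rarb was the most abundant of the 6 receptors with Isotretinoin, at 18.1 CPM per kb, and Rxrb followed at 16.9. In the vehicles the mean of Rxrb was 18.4 CPM per kb and that of Rarb 9.82. Rxra was at 8.74 CPM per kb with Isotretinoin and 7.70 in the vehicles, Rxrg at 5.25 and 3.8, Rarg at 2.8 and 2.4, and Rara at 2.09 and 3.54. The order of Rarb and Rxrb with Isotretinoin rests on 1 library.

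The 8 receptor coregulators had small differences, with a median log2 difference of 0.01 against the run drugs and 0.09 against the vehicles. None passed, and the corepressor gene Ncor1 was at -0.03 ± 0.06 against the run drugs.

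**Figure D3:**
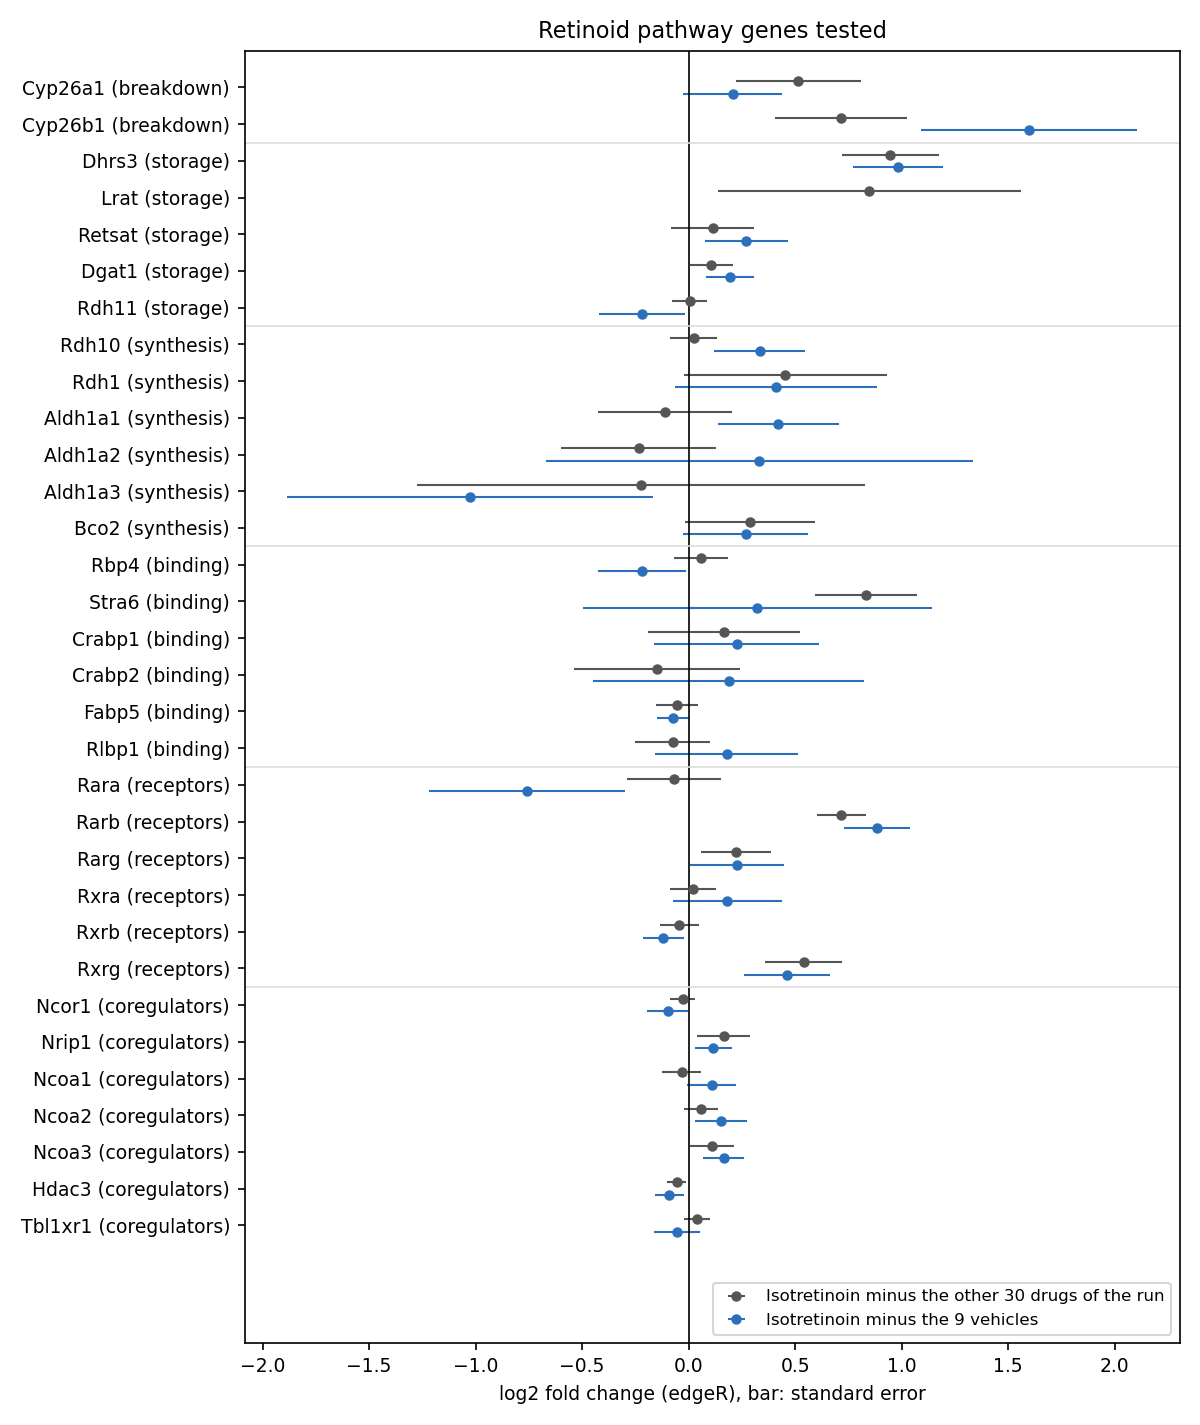
Log2 fold changes (horizontal axis, points) with standard errors (bars) of the retinoid breakdown, storage, synthesis, binding, receptor and coregulator genes shown, for Isotretinoin minus the run drugs and minus the 9 vehicles. Rarb at 0.72 is the 1 gene that passed, in the run comparison; the largest value is that of Cyp26b1 against the vehicles, 1.6.

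Reported retinoic acid targets from other cells and embryos made up the last retinoid list, with 43 genes. None of the 24 tested against the run drugs passed (median log2 difference 0.09), nor any of the 25 tested against the vehicles (median 0.02). Tgm2, a transglutaminase, was at 7.87 CPM, above 2.5 to 6.87 in the run drugs and 1.37 to 6.2 in the vehicles (0.85 ± 0.33 and 1.30 ± 0.68). Rarres2, the gene of chemerin, was at 7.38 CPM, above the vehicles (3.7 to 5.67) and inside the run drugs (4.42 to 8.46). The homeobox genes Meis1, Meis2 and Tshz1 had the same pattern: each was above all vehicles and inside the run drugs. The 12 Hox genes had at most 1 read each and 10 of them had 0, which allows up to 0.0868 CPM in this library.

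Over all 84 retinoid genes, 58 were tested against the run drugs, where 1 rose, 0 fell and 57 did not pass. Their median log2 difference was 0.07, against -0.007 over all genes tested. Above all 30 run drugs were 8 of them, where the share over all tested genes was 1.95%. Against the vehicles 58 were tested, 0 passed, and the median was 0.16, against -0.004 over all genes. Above all vehicles were 14, where the share over all tested genes was 16.7%. Rarb, Cyp26b1 and Dhrs3 were each highest in the Isotretinoin library of all libraries of the series, which held for 0.266% of all genes tested against the run drugs. Another 25 genes were tested in neither comparison, with at most 5 reads each in the Isotretinoin library.

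The other 11 genes that rose over the run drugs lay outside the retinoid lists. All 12 were above every run drug and every vehicle, and 4 (Rarb, Arhgef19, Mettl20 and Ddx60) were the highest of the series. Mbd1, a reader of methylated CpG sites, was at 66.3 CPM with Isotretinoin, against 35.8, 38.6 and 44.0 CPM (lowest, median, highest) in the run drugs and 33.1, 35.5 and 39.0 in the vehicles. It rose 1.72-fold over the run drugs (0.78 ± 0.07, adjusted p = 3.86e-09 by edgeR) and 1.84-fold over the vehicles (0.88 ± 0.08, adjusted p = 0.00502). Both reference sets were narrow for Mbd1, with an SD of 1.88 CPM over the 30 run drugs and 1.72 over the 9 vehicles.

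Arhgef19, a guanine nucleotide exchange factor for small GTPases, was at 48.2 CPM with Isotretinoin. The run drugs had 17.1, 23.1 and 29.8 CPM (lowest, median, highest) and the vehicles 18.8, 20.2 and 28.9. It rose 2.1-fold over the run drugs (1.09 ± 0.19, adjusted p = 0.00671 by edgeR). The highest library of the series after Isotretinoin was Betaxolol·HCl at 34.6 CPM.

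2810474O19Rik, named Resf1 in GENCODE vM21, was at 51.6 CPM with Isotretinoin, against 20.9 to 33.0 CPM in the run drugs and 18.1 to 28.8 CPM in the vehicles. It rose 1.96-fold over the run drugs (0.97 ± 0.15, adjusted p = 0.00247 by edgeR). Mettl20, named Etfbkmt in GENCODE vM21 and coding for a lysine methyltransferase of the electron transfer flavoprotein, was at 11 CPM, against 3.1 to 6.84 and 2.04 to 6.27 CPM. It rose 2.30-fold over the run drugs (1.2 ± 0.25, adjusted p = 0.0447).

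A further group of the 12 are known for innate immune and inflammatory responses, and most had few reads. Steap4, a metalloreductase induced by inflammation, was at 2.58 CPM (89 reads) with Isotretinoin, against 0.0604 to 0.774 CPM in the run drugs and 0.0680 to 1.2 CPM in the vehicles. Lcn2, an iron-siderophore binding protein, was at 2.95 CPM (102 reads), against 0.119 to 1.3 and 0.185 to 1.4 CPM. Tlr2, a receptor for bacterial lipoproteins, was at 1.88 CPM (65 reads), against 0.120 to 0.902 and 0.0788 to 1.09 CPM.

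These 3 rose 6.51-fold, 6.40-fold and 4.02-fold over the run drugs (adjusted p = 0.00395, 0.00838 and 0.0447 by edgeR). Nfkbia, the inhibitor of NF-kB, was at 32.3 CPM, against 18.3 to 25.6 CPM in the run drugs and 18.7 to 27.6 in the vehicles (1.5-fold over the run drugs, adjusted p = 0.0368). Summed microglia markers were at 6.40 CPM over 4 genes with Isotretinoin. The run drugs had 2.55, 4.41 and 7.40 CPM (lowest, median, highest) and the vehicles 2.49, 4.78 and 12.3 CPM. Against each set 3 of the 4 markers were higher and 1 lower. The median log2 differences were 0.62 and 0.64, and none passed. In bulk cultures, more cells of a type and more RNA per cell cannot be told apart.

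The remaining 3 belong to the interferon system. Oasl2, an oligoadenylate synthetase-like protein, was at 4.78 CPM with Isotretinoin (165 reads), against 0.806 to 2.2 CPM in the run drugs and 1.02 to 2.23 CPM in the vehicles. It rose 3.46-fold over the run drugs (1.79 ± 0.31, adjusted p = 0.00514 by edgeR). Stat2, a transcription factor of the type I interferon pathway, was at 33.2 CPM, against 21.4 to 29.9 and 20.4 to 26.7 CPM, and rose 1.3-fold (adjusted p = 0.0447). Ddx60, a helicase that promotes antiviral signalling, was at 3.0 CPM, against 0.490 to 1.48 and 0.146 to 1.89 CPM, and rose 2.89-fold (adjusted p = 0.0447). Nfkbia, Stat2, Mettl20, Tlr2 and Ddx60 lay near the threshold and passed in 29, 23, 14, 15 and 13 of the 30 fits that left out 1 run drug.

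With all other 226 libraries and a run-code term, Rarb, Mbd1, Arhgef19, Oasl2 and Mettl20 still passed, and the other 7 of the 12 did not (adjusted p from 0.125 for Ddx60 to 1.0 for Nfkbia and Lcn2). For example, the adjusted p was 0.183 for 2810474O19Rik, 0.365 for Steap4 and 0.796 for Stat2 and Tlr2. By DESeq2 against the run drugs, Lcn2 and Tlr2 did not pass (adjusted p = 0.14 and 0.0981).

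**Figure D4:**
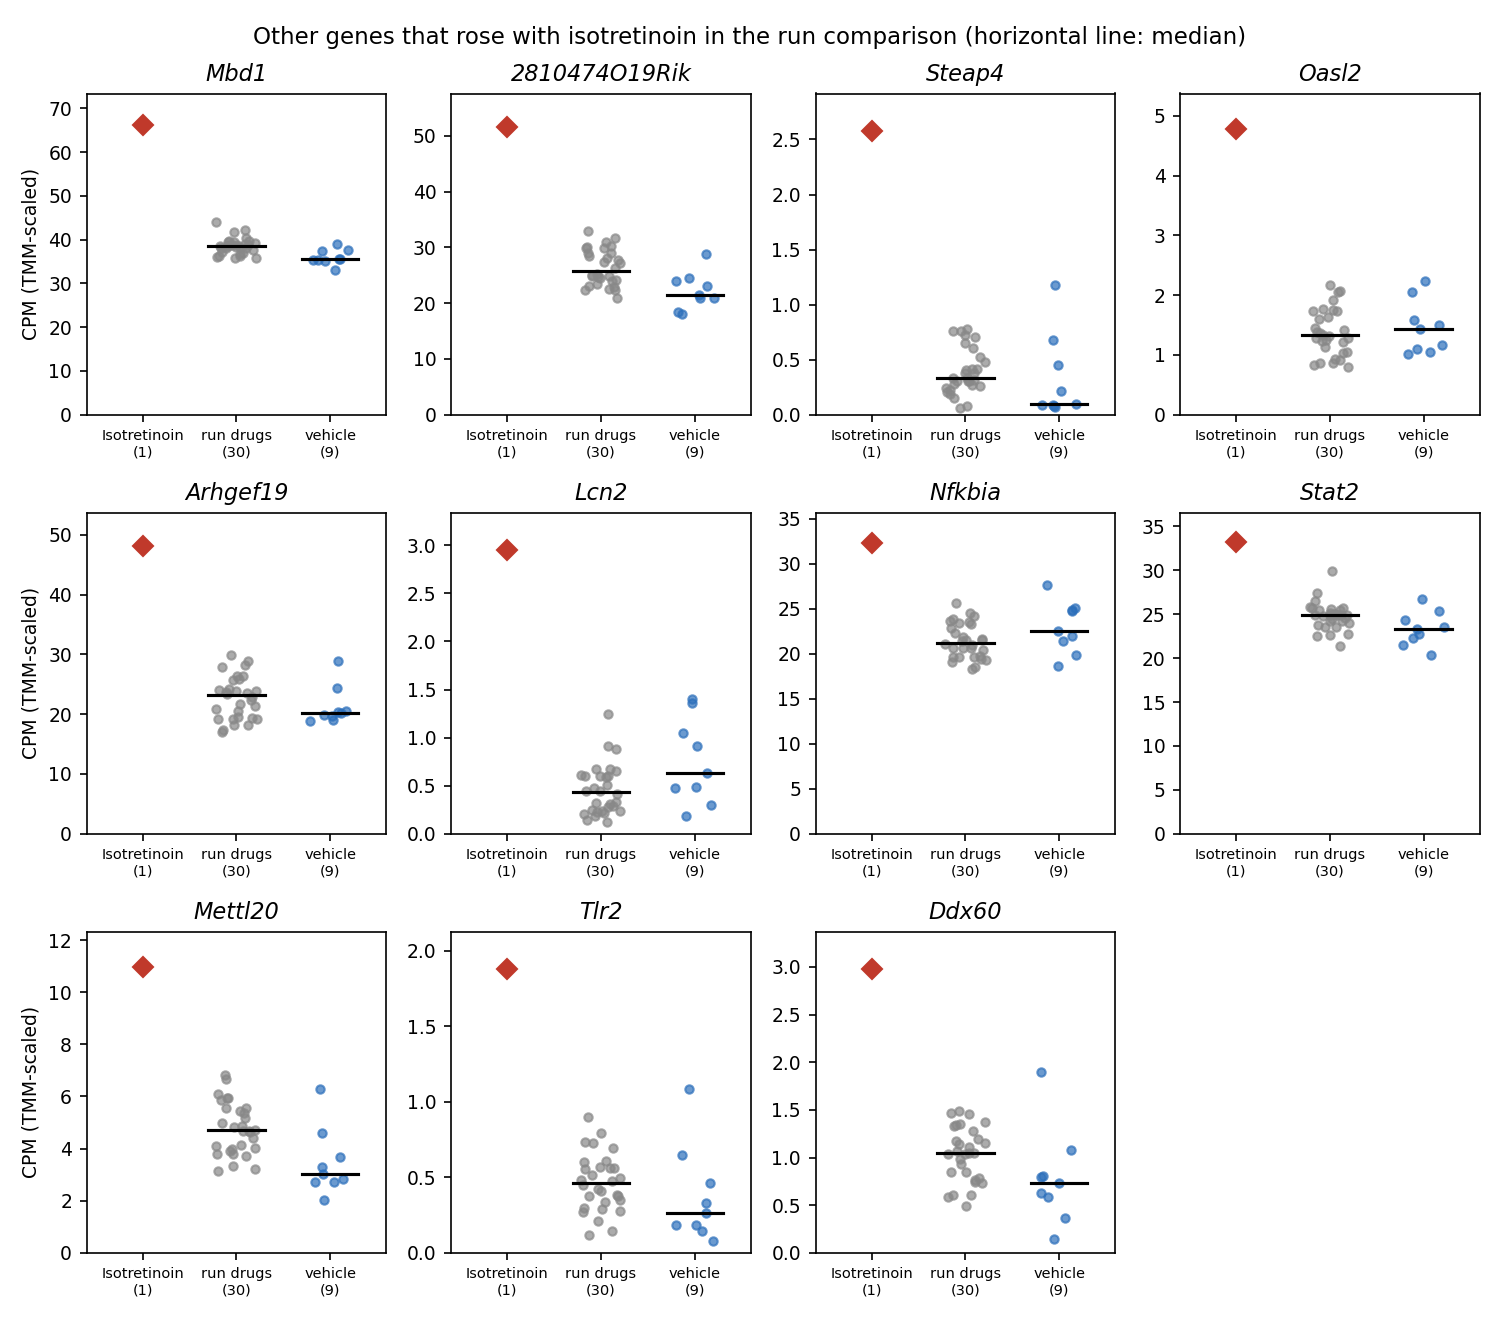
Level in CPM (vertical axes, from 0) of the 11 genes other than Rarb that rose over the run drugs, in the Isotretinoin library (diamond), the 30 run drugs and the 9 vehicles (points, with the median as a line). In each panel the diamond lies above every point, for example 66.3 CPM of Mbd1 against a highest run drug of 44.0 CPM.

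The Ddx60 promoter window (chr8:61927837-61928136, plus strand, RefSeq, GRCm38.p6) is shown because it holds 2 copies of an interferon response element, searched as GAAANNGAAA on both strands and given in capitals.

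Ddx60 promoter: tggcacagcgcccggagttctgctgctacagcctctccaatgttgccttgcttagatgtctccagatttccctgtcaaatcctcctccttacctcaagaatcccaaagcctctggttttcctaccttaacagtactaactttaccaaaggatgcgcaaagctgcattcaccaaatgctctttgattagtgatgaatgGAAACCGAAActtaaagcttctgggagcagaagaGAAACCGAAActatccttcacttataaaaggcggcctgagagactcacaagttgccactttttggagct

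These copies lay at -53 to -44 and -19 to -10 from the start. The same letters were in 3.44% of all windows, from 1079 of the 27025 genes with a window. They were in 2 of the 11 genes among the 12 that had a window, Ddx60 and Stat2. A motif for NF-kB was in 4.51% of windows, from 1388 of the 27025 genes. It was in 4 of the 11, namely Steap4, Arhgef19, Nfkbia and Tlr2. The Arhgef19 window began at chr4:141244838, inside the gene, which starts at 141239499 in GENCODE vM21.

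The interferon list had 6 genes, all tested. Against the run drugs 1 rose, Oasl2, and 5 did not pass, and the median log2 difference was 1.3. All 6 values were positive, and 5 of the 6 were above every run drug, where the share over all tested genes was 1.95%. Ifit1, an antiviral RNA-binding protein, was at 5.53 CPM, against 1.1 to 3.23 CPM in the run drugs and 0.583 to 2.82 CPM in the vehicles, and missed the threshold (1.46 ± 0.32, adjusted p = 0.0613 by edgeR). Isg15, a ubiquitin-like modifier, was at 1.39 CPM, against 0.242 to 0.820 and 0.146 to 0.559 CPM (1.44 ± 0.32, adjusted p = 0.0678). Against the vehicles the median was 1.41 and 0 passed. All 6 were above every vehicle, where the share over all tested genes was 16.7%. Of the 6 PPAR targets 5 were also above every vehicle, as were 6 of the 9 tested FoxO and p53 genes. The 5 astrocyte markers were all above every vehicle, against 2 of the 6 LXR targets and 0 of the 10 activity-regulated genes.

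The 10 activity-regulated genes had a median log2 difference of -0.51 against the run drugs and -2.56 against the vehicles. The 9 hypoxia genes had -0.48 and -1.6, and the 6 cholesterol biosynthesis genes -0.27 and -1.07. None of these 25 genes passed either test. Npas4, an activity-regulated transcription factor, was at 7.06 CPM with Isotretinoin, against 2.52, 8.54 and 45.7 CPM (lowest, median, highest) in the run drugs and 8.69, 24.9 and 147 CPM in the vehicles. Summed astrocyte markers were at 5510 CPM, inside the run drugs (3826 to 6098) and above the vehicles (2559 to 4915). Summed excitatory neuron markers were at 468 CPM, inside the run drugs (369 to 836) and below the vehicles (570 to 1236). Summed neuron markers were at 3666 CPM, inside the run drugs (3304 to 4617) and below the vehicles (3741 to 5145). Summed oligodendrocyte precursor markers were at 399 CPM, inside the run drugs (365 to 470) and below the vehicles (452 to 519). The part of these cell types in the other results was not tested.

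Vehicle-4, the vehicle of the run, was itself the lowest vehicle for 8 of the 10 activity-regulated genes, 7 of the 9 hypoxia genes and 0 of the 6 cholesterol genes. Npas4 was at 7.06 CPM with Isotretinoin and 8.69 CPM in Vehicle-4. The median log2 ratio of Isotretinoin to Vehicle-4, with no test, was -0.15 for the activity-regulated genes, -0.08 for the hypoxia genes and -0.63 for the cholesterol genes.

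Lists of other nuclear receptors gave no call. The 6 PPAR targets had a median of 0.23 against the run drugs and 0.73 against the vehicles, and Angptl4 was at 1.1 CPM, against 0.195 to 1.2 and 0.0663 to 0.741 CPM. The 6 LXR targets had medians of 0.03 and 0.06, and the 6 thyroid hormone response genes of -0.04 and 0.02. The 4 AMPA receptor subunits had -0.05 and -0.26, and the 6 monoamine signalling genes -0.07 and -0.34. Vdr, the 1 tested gene of 2 in the vitamin D list, was at 0.16 ± 0.60 and 0.22 ± 0.67. In the FoxO and p53 list Lcn2 rose and the other 8 tested genes did not pass, with a median of 0.07 against the run drugs and 0.36 against the vehicles.

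**Figure D5:**
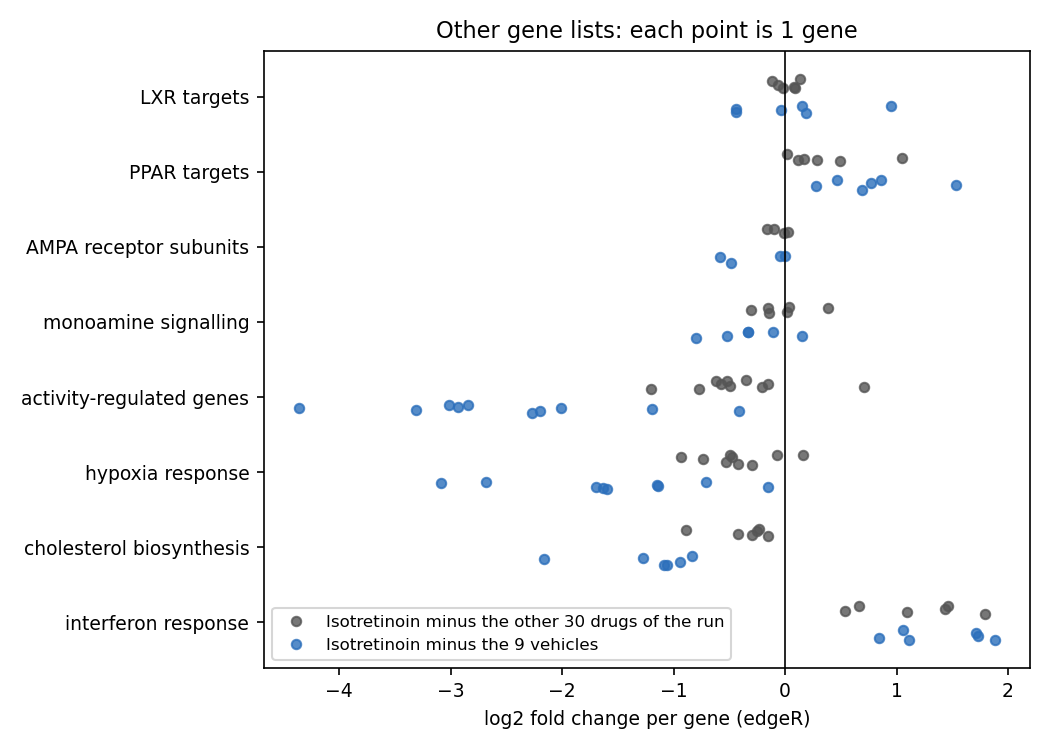
Log2 fold changes (horizontal axis) of single genes (points) in 8 lists, for Isotretinoin minus the run drugs and minus the 9 vehicles. The interferon genes lie above 0 in both comparisons, with medians of 1.3 and 1.41; the activity-regulated genes have medians of -0.51 and -2.56.

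No gene fell in either test. In the rankings here, lower genes are those below every library of the reference set, with a mean of 1 CPM or more. The lowest unadjusted p among genes below all run drugs was that of Rab24, a small GTPase, at 28.6 CPM against 30.9 to 34.9 CPM in the run drugs and 31.5 to 35.8 CPM in the vehicles (-0.20 ± 0.05, adjusted p = 0.268 by edgeR). It was the lowest of the series. Against the vehicles the lowest unadjusted p among lower genes was that of Syt13, a synaptotagmin, at 45.4 CPM against 55.1 to 70.3 CPM (-0.54 ± 0.12, adjusted p = 0.55), and it was inside the run drugs (41.1 to 70.5 CPM).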

How the data were processed

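Whole-read counts per Ensembl gene, not normalized, were deposited by the authors for 31689 genes, and 31328 identifiers were found in GENCODE vM21. Libraries were made with a stranded mRNA kit, per the labels' protocols. The submitters' processing notes name STAR 2.4.0, Subread 1.4.6, limma, edgeR 3.10.5 and mm10, and the counting settings are not given in the sources used here. Groups follow the agent labels, and run code and lane follow the library names in the labels.

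In R 4.3.3, edgeR 4.0.16 was run with TMM factors, genes of low count removed by filterByExpr, and the quasi-likelihood F test, with Benjamini-Hochberg adjusted p under 0.05 over all genes tested. Isotretinoin (1 library) was compared with the 30 other drugs of its run code and with the 9 vehicles. Alternatives used RLE factors, no filter, DESeq2 1.42.0, limma 3.58.1 (voom) with a run-code term, other reference sets, and each reference library left out. CPM values were scaled by TMM over all libraries, and CPM per kb used the deposited gene length. Ranges stand for the spread of a reference set, ± after a log2 difference is a standard error, and the exact (Clopper-Pearson) 95% intervals cover counting error only. Fits were tested on simulated data.

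The gene lists and the tests were chosen with earlier results of these data known. The rule for named genes took all retinoid list members, all genes that passed, the 10 rises and 10 falls of lowest p outside the reference range with a mean of 1 CPM or more, and up to 3 members of other lists. The text gives part of these, and some list members are counted but not reported here by name. Members named to describe a list or a figure outside this rule were chosen after their values were seen. Promoter windows are from RefSeq (GRCm38.p6), with 11 of the 12 genes that passed matched. Summed markers of the lists not named in the text (inhibitory neurons, oligodendrocytes, mural cells and fibroblasts) were within the range of the run drugs and of the vehicles.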

Additional observations from a re-analysis of the deposited data

Results flagged for a closer look

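In 63 genes, the 9 vehicles were checked for a single library far from the rest, a check that chance alone meets in about 1 of 20 genes. It picked out 4. Cyp26b1 was at 17.4 CPM in Vehicle-3 with the next vehicle at 9.08 CPM, against 23.7 CPM with Isotretinoin. Hdac3 was at 100.2 CPM in Vehicle-8 with the next at 94.2 CPM, against 86.8 CPM with Isotretinoin. Nav2 was at 115.8 CPM in Vehicle-6 with the next at 101.3 CPM, against 102.7 CPM with Isotretinoin. Irf7 was at 0.590 CPM in Vehicle-1 with the next at 0.370 CPM, against 0.666 CPM with Isotretinoin.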

How the results depend on the processing

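Against the vehicles, the 1 gene that passed became 9 by DESeq2 (8 higher and 1 lower, with Rarb, Arhgef19, Oasl2 and 2810474O19Rik among them) and 0 by limma's voom with a run-code term over all libraries, where 1654 genes had an unadjusted p under 0.05 and only 3 residual degrees of freedom remained. Leaving out 1 vehicle in turn gave 1 to 3 genes, the most without Vehicle-1, and Mbd1 passed in all 9 of these fits. Against the run drugs, the 12 genes became 6 with all other 226 libraries and a run-code term, and 5 of these 6 belonged to the 12. Leaving out 1 run drug in turn gave 7 to 17 genes, the fewest without Isosorbide Dinitrate, and Rarb and Mbd1 passed in all 30 of these fits. The count was 12 with RLE factors, 8 without a filter, 14 by DESeq2, 12 with Vehicle-4 added, 11 without Levothyroxine·Na, Liothyronine·Na and Formoterol, and 12 without the 3 lane mates. The settings with 226 libraries and without lane mates were chosen after seeing the data. The cause of these differences was not tested. Direction was followed over the settings for the 12 genes, Cyp26b1 and Dhrs3, and none of these changed direction in any setting run. Other named genes were not followed over all settings. No paired analysis was possible because a single Isotretinoin library has no replicate number shared with the vehicles. A single library per drug limits all of these comparisons, and genes with about 100 reads or fewer, such as Tlr2, Steap4 and Ddx60, have wide counting intervals.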

Other observations

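Several genes outside the lists were at their highest in the Isotretinoin library of the whole series, among genes with a mean of 1 CPM or more, and they were chosen here after their values were seen. The interferon-inducible GTPases Irgm1 and Irgm2 were at 34.7 and 6.02 CPM, with medians over the series of 12.5 and 1.77 CPM. Irgm1 was next highest at 33.7 CPM in Nitrofurantoin, and Irgm2 at 4.54 CPM in Bumetanide. Irf9, the partner of Stat2 in the interferon-stimulated transcription complex, was at 23.4 CPM with a median of 13.5 CPM. Rsad2, an antiviral enzyme, was at 5.93 CPM with a median of 2.3 CPM. Oxaprozin was close behind for both, at 22.4 CPM of Irf9 and 5.4 CPM of Rsad2. Ephb2, an ephrin receptor, was at 85.3 CPM with Isotretinoin and next highest at 74.4 CPM in Liothyronine·Na. Rnf144a, a ubiquitin ligase, was at 270.2 CPM with Isotretinoin and next highest at 215.2 CPM, again in Liothyronine·Na, a thyroid hormone. Pax6, a neural transcription factor, was at 74.5 CPM and next highest at 67.4 CPM in Oxaprozin. None of these 7 genes passed the 2 main tests.

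Some genes that rose with Isotretinoin were also high in named drugs of other runs. Mbd1 was highest in Dexamethasone at 94.2 CPM, and Betamethasone, another glucocorticoid, had 63.2 CPM beside 66.3 CPM with Isotretinoin. 2810474O19Rik was highest in Fenofibrate at 115.6 CPM, against 51.6 CPM with Isotretinoin. Nilotinib had the highest value of the series for Steap4 (7.29 CPM), Lcn2 (11.9 CPM), Tlr2 (6.4 CPM) and Nfkbia (57.7 CPM). Isotretinoin ranked 7 in the series for both Lcn2 and Nfkbia. Among the libraries above it were Betamethasone (8.86 and 35.6 CPM) and Dexamethasone (7.95 and 40.3 CPM). Of the interferon genes that rose, Oasl2 was highest in Oxtriphylline at 4.92 CPM, against 4.78 CPM with Isotretinoin. Stat2 was highest in Ciprofibrate at 33.6 CPM, against 33.2 CPM with Isotretinoin. Ddx60 was highest with Isotretinoin, and Oxaprozin was next at 2.58 CPM. Arhgef19 was not shared in this way, with 48.2 CPM in Isotretinoin and 34.6 CPM in the next library.

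Mettl20 and 2810474O19Rik lie 158 kb apart on chromosome 6. Amn1, between them, was at 14.1 CPM with Isotretinoin, inside the run drugs (12.2 to 15.4) and the vehicles (12.8 to 17). Bicd1, beyond them, was at 98.1 CPM, inside 82.1 to 108.3 and 93.0 to 106.6 CPM.

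The lane of the Isotretinoin library recurs among the genes that rose. Of the 12, Irbesartan had the highest value of the 30 run drugs for 6, namely Rarb, Mbd1, 2810474O19Rik, Arhgef19, Mettl20 and Tlr2. Over all 15419 genes tested, Irbesartan was the highest run drug for 1.1%. Hydroxyzine Dihydrochloride was the highest run drug for 1 of the 12, Ddx60, and for 5.33% of all genes, and Isosorbide Dinitrate for 0 of the 12 and 1.75% of all genes. In Irbesartan the values were 44.2 CPM of Rarb, 44.0 of Mbd1 and 29.8 of Arhgef19, against 55.0, 66.3 and 48.2 CPM in Isotretinoin. With the 3 lane mates left out of the run drugs, 12 genes passed, 11 of them among the original 12, with Ifit1 added and Stat2 lost (adjusted p = 0.0617 by edgeR). The source of the values in Irbesartan was not tested.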
